A study of Mus musculus with 12 samples.

Results

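The comparison described here set sorted hypoxic BN1-Tie2-EGFP cells (SH) against the unsorted normoxic population from which they descended (UN), which makes 6 of the 12 libraries of the series. Genes entered by their level alone. Of 45706 genes listed, 18909 had a mean of at least 0.1 TPM (a transcript level corrected for gene length that adds to the same total in every library) over the 12 libraries and were tested. A gene was called when its log2 fold change exceeded 1 in size at an adjusted p under 0.05 (limma on log2(TPM + 1), Benjamini-Hochberg adjustment over all 18909 genes). The remaining groups each lie 1 step from the start: unsorted cells under hypoxia (UH), and sorted cells under normoxia (SN). They were used to ask which changes of SH were also called after 1 step and which were called only where both steps met.

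The BN1 line came from a mouse hepatoblastoma (HB), a liver tumour of early childhood in humans, that was driven by the Δ90 deletion mutant of β-catenin (B) and the L30P mutant of NRF2 (N), delivered with Sleeping Beauty vectors. In all 4 groups the Cdkn2a locus had been targeted with Crispr in the original tumour, and the genotype label of every library reads Cdkn2a KO. The cells also carried EGFP driven by the promoter of Tie2 (Tek), a receptor of endothelial cells (ECs), from pooled stable clones. UN cells were kept in 21% oxygen, and UH cells spent 2 days in 1% oxygen. SN cells had spent 2 days in 1% oxygen, were then sorted for the brightest EGFP and were expanded for about 10 days in 21% oxygen. SH cells were SN cells returned to 1% oxygen for 2 days. Each group had 3 replicate libraries. The titles call all 12 libraries EGFP+, the unsorted ones included. The study calls its replicates independent, and whether they were separate cultures is not given in the sources used here, so the p-values measure the spread between these libraries, which may be technical. In what follows, "the sorting step" stands for everything that separates SN from UN, which is an earlier hypoxia, the choice of bright cells and the expansion. These cannot be told apart here.

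Cells short of oxygen stabilise the alpha subunits of the hypoxia-inducible factors (HIFs), which then switch on genes for glucose uptake, glycolysis, angiogenic ligands and the restraint of mitochondrial respiration. The alpha subunits are destroyed again once oxygen returns. A changed cell population, by contrast, keeps its RNA profile as long as the selected cells and their progeny keep their state. The RNA of SH cells can therefore hold the marks of both, and of anything that appears only where the selected cells meet hypoxia.

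The SH libraries resembled each other (Pearson's r of log2(TPM + 1) across genes 0.984 to 0.989, a description over genes that are not independent) more than they resembled UN (0.903 to 0.923). UN replicate 1 stood apart from the other two UN libraries, for example in collagen genes, and several values are given with and without it. Between 21666 and 22369 genes had a TPM above 0 in SH libraries, against 19721 to 20251 in UN, and these groups did not overlap (exact two-sided permutation p = 0.1, the smallest that 3 against 3 libraries allow). The counts of genes at 1 TPM or more were 13213 to 13607 in SH and 13196 to 13479 in UN, and these overlapped (exact permutation p = 0.5). TPM keeps no record of depth, so whether the libraries were sequenced to different depths was not tested. Mitochondrial transcripts held 3.43% ± 1.10 (SD, n = 3) of TPM in SH and 6.10% ± 1.27 in UN (exact permutation p = 0.1). Cdkn2a RNA was 8.46 ± 0.992 TPM in SH and 265 ± 65.4 TPM in UN (SD, n = 3). As every group carries the edited locus and the edits lie in exon 2 of an RNA that is still made, this level does not check the labels.

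The endpoint differed from the start in 3842 genes. In SH, 1697 genes were called higher (8.97% of those tested) and 2145 lower (11.3%), and the median gene moved by -0.04 on the log2 scale. The 3 SH and 3 UN values did not overlap in 1677 of the genes called higher and 2124 of those called lower, where 59.4% of all tested genes also did not overlap. Of the genes called higher, 552 had a mean under 1 TPM in UN, and all 552 reached 1 TPM in SH. Of those called lower, 627 had a mean under 1 TPM in SH, among them 123 with at least 10 TPM in UN. Genes at the fold limit were Zfp287 (1.0001) and Spopl (-1.0001) just inside, and Tcta (0.9999) and Pigm (-0.99999) just outside.

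Each single step changed fewer genes upward than the endpoint did. SN differed from UN by 606 genes called higher (3.2%) and 1431 called lower (7.57%), and UH by 1032 (5.46%) and 2222 (11.8%). All 3 comparisons share the UN libraries, so their counts are not independent. The split of higher and lower calls depended on how libraries were scaled to each other. Higher calls made up 31.7% of all calls for UH under TPM as deposited, but 56.2% under median-of-ratios scaling and 51.8% under quantile normalization. For SN they made up 29.7%, 37.2% and 42.5%, and for SH 44.2%, 52.0% and 51.5%. The median gene of UH lay at -0.19 in TPM and at 0.00 with median-of-ratios scaling.

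The genes called in SH were sorted by whether 1 single step was called in the same direction. Among the 1697 called higher, 474 (27.9%) were also higher after the hypoxia step alone, 222 (13.1%) after the sorting step alone and 97 (5.72%) after either step. The largest class was called in neither step, with 904 genes (53.3%). Their median log2 fold change was 1.32 in SH, 0.24 in SN and 0.29 in UH, so the median gene of the class had moved slightly the same way in each step. Among the 2145 called lower, 685 (31.9%) were lower after hypoxia alone, 610 (28.4%) in the sorted population alone, 440 (20.5%) after either step and 410 (19.1%) after neither. With median-of-ratios scaling the 4 lower classes held 396, 636, 283 and 451 genes, so the size of the hypoxia class depends on the scaling. The corresponding higher classes held 661, 240, 159 and 855 genes.

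**Figure D1:**
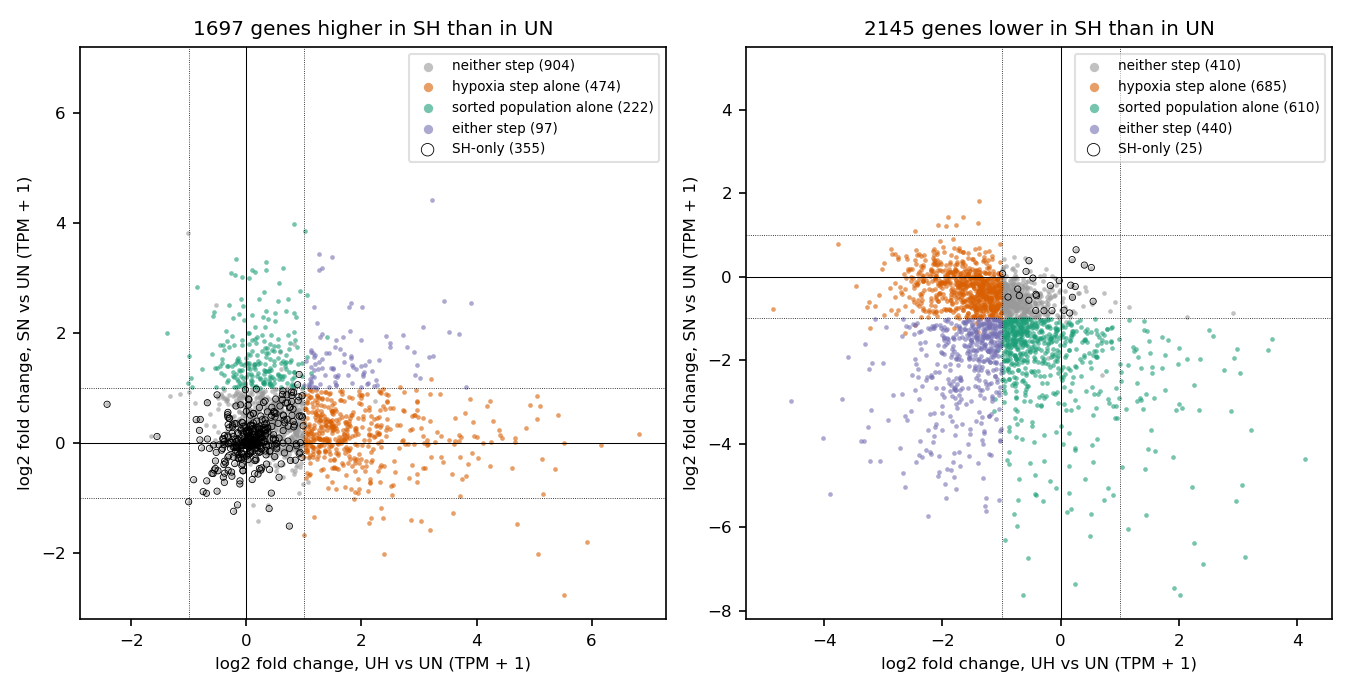
Each point is a gene called in SH against UN (left panel higher, right panel lower), placed by its log2 fold change in UH against UN on the x axis and in SN against UN on the y axis. Colours give the 4 classes, dotted lines mark the fold limit of 1, and open circles mark the 355 higher and 25 lower genes called in SH only, which gather near 0 on both axes.

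The strongest gains of the endpoint were genes that hypoxia alone also raised. Mgarp, which encodes a mitochondrial protein, was at 1.31, 0.397 and 0.51 TPM in UN and at 123, 121 and 80.7 TPM in SH. UH libraries held 70.4 to 72.3 TPM and SN libraries 0.998 to 2.38 TPM, so its level followed oxygen in both populations. The log2 fold change in SH was 5.98 ± 0.25 (SE, adjusted p = 8.15e-09). Selenbp1, which encodes a methanethiol oxidase, was at 2.42, 2.54 and 3.33 TPM in UN and 230, 237 and 157 TPM in SH (log2 fold change 5.78 ± 0.15, adjusted p = 6.83e-10). Ankrd37, a HIF target with ankyrin repeats, was at 5.38, 4.7 and 5.59 TPM in UN and 369, 379 and 248 TPM in SH. Its change was 5.72 ± 0.24 on the log2 scale (adjusted p = 8.34e-09), and in SN it stayed at 6.35 to 13.5 TPM.

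Ero1l, the oxidase that recharges protein disulphide isomerase, was at 17.5, 13.1 and 15.0 TPM in UN, 602, 755 and 880 TPM in UH, 15.3, 13.8 and 16.4 TPM in SN and 808, 937 and 507 TPM in SH. Its change in SH was 5.5 ± 0.21 (adjusted p = 5.23e-09), and the hypoxia responses of sorted and unsorted cells differed by -0.02 (adjusted p = 0.97). Gipr, the receptor of the gut hormone GIP, was listed at 0, 0.0435 and 0.0841 TPM in UN and reached 57.8, 50.5 and 26.7 TPM in SH. Gbe1, the glycogen branching enzyme, was at 4.59 to 6.09 TPM in UN and 159 to 224 TPM in SH. The naming rule took only genes whose SH and UN libraries did not overlap, so the separation of these genes is no added support.

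Of 21 genes of glucose uptake and glycolysis tested, 17 were called higher in SH (8.97% of all genes), and their median log2 fold change was 2.33. All 17 fell into the hypoxia class. Pfkp, the platelet form of phosphofructokinase, was at 20.2, 19.3 and 18.2 TPM in UN and 333, 371 and 276 TPM in SH (log2 fold change 4.01 ± 0.13, adjusted p = 2e-09). Eno2, an enolase, rose by 3.92 ± 0.27, and the glucose transporter gene Slc2a1 by 3.40 ± 0.16. Summed over the list, TPM went from 10300 to 10700 in UN libraries to 49200 to 58400 in SH libraries, and the groups did not overlap. The hypoxia response of Slc2a1 was smaller in sorted than in unsorted cells (difference -1.60, adjusted p = 0.000715), with 363 to 416 TPM in SH and 681 to 734 TPM in UH.

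Of 35 other HIF target genes, 27 were called higher in SH and 1 lower (8.97% and 11.3% of all genes), with a median of 2.18. Of those 27, 24 belonged to the hypoxia class. Plod2, a lysyl hydroxylase of collagen, was at 55.6, 30.7 and 30.3 TPM in UN and 700, 778 and 523 TPM in SH (4.11 ± 0.23). Vegfa, the main ligand of endothelial growth, was at 99.6 to 109 TPM in UN and 660 to 943 TPM in SH (3.01 ± 0.21, adjusted p = 5.51e-07). Edn1, the endothelin gene, was the member called lower, with 18.6, 21.3 and 20.6 TPM in UN and 7.96, 8.81 and 4.79 TPM in SH (-1.40 ± 0.25). It was also called lower in SN (-1.34), and in UH its change was 0.04. Both metallothionein genes tested were called higher. Mt1 was at 177 to 235 TPM in UN, 913 to 1530 TPM in SH and 4140 to 6050 TPM in UH, and its response was smaller in sorted cells (difference -1.48, adjusted p = 0.0162).

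**Figure D2:**
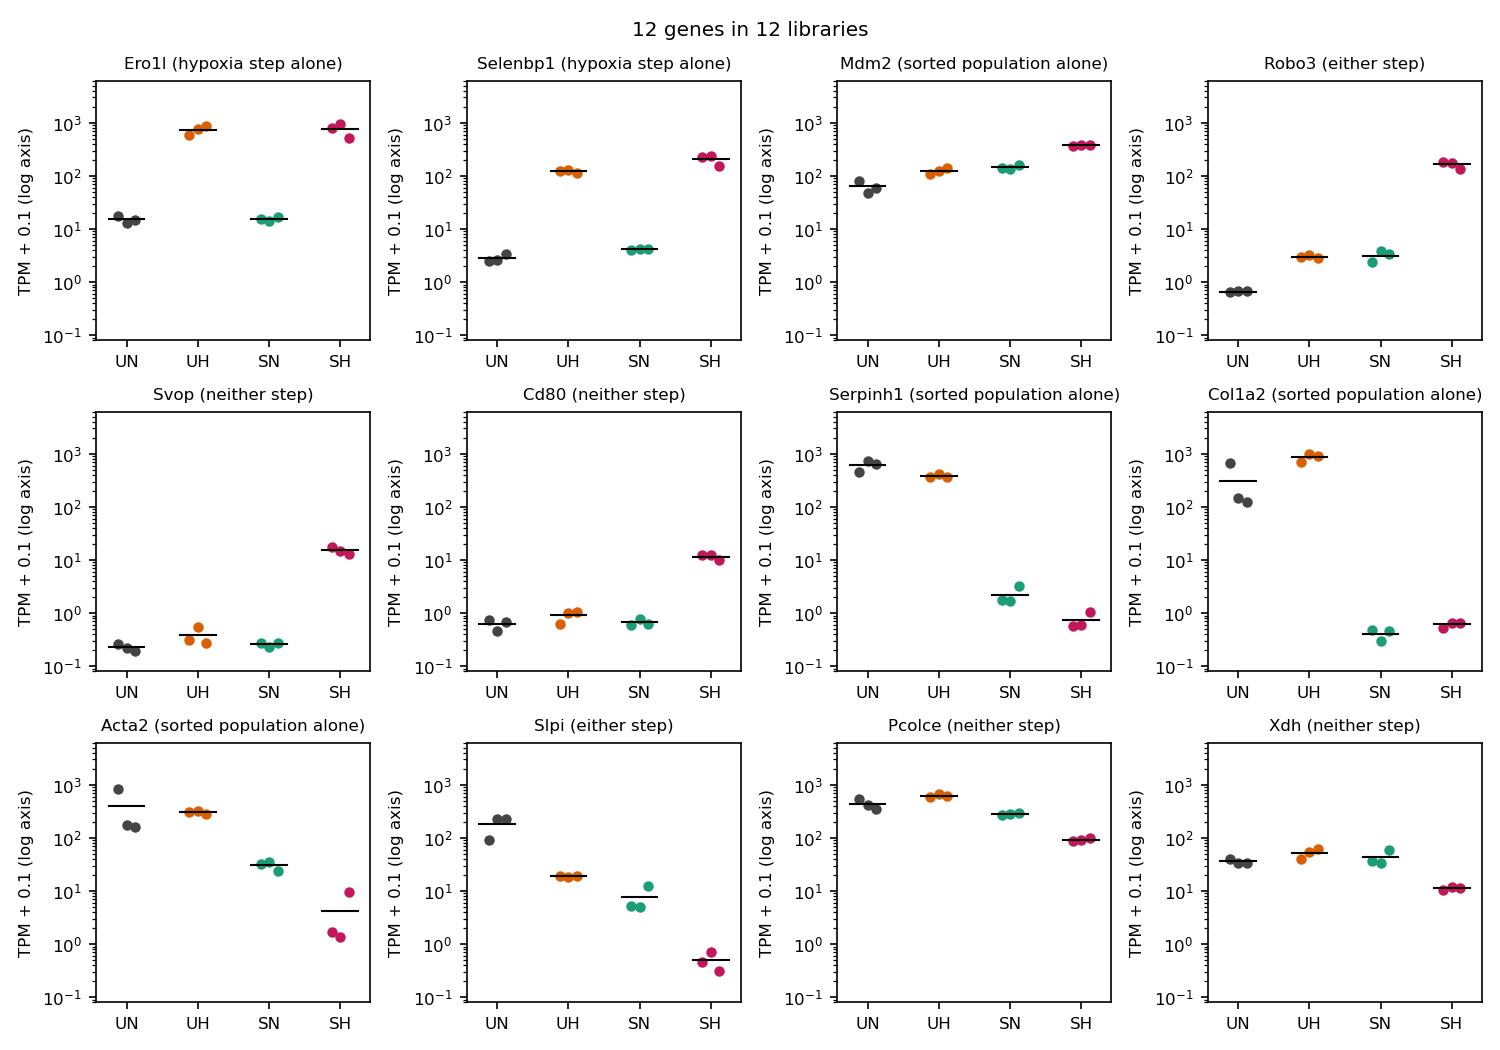
TPM of 12 genes, each panel titled with the gene and its class, in UN, UH, SN and SH on a log axis of TPM + 0.1, with 1 point per library and a line at the group mean. Ero1l is high in UH and SH (507 to 937 TPM), Serpinh1 is low in SN and SH (0.467 to 3.14 TPM), and Svop is high in SH only (13.1 to 17.3 TPM).

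Promoter sequence is shown for genes that typify these patterns, so that the class can be set beside the DNA next to the start site. The stretches lie within the 250 bases before the RefSeq start of each gene and hold no annotated exon (build GRCm38.p6, shown 5′ to 3′ on the gene's strand). Capitals mark ACGTG or GCGTG on either strand, the core of the hypoxia response element, with overlapping matches counted. Of 32851 mouse promoter windows of 250 bases, 38.6% hold at least 1 match. Cut to the same bases, the share is 25.2% for Mgarp, 35% for Selenbp1 and 36.4% for Ankrd37. These are 3 genes of the hypoxia class, at chr3:51396549-51396670, chr3:94932833-94933055 and chr8:45999868-46000100.
Mgarp: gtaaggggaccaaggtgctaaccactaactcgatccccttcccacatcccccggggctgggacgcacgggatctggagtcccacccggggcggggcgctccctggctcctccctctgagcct
Selenbp1: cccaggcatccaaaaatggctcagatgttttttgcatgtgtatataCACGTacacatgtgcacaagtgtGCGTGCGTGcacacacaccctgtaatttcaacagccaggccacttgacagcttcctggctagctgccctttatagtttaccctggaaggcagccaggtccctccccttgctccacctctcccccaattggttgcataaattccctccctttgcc
Ankrd37: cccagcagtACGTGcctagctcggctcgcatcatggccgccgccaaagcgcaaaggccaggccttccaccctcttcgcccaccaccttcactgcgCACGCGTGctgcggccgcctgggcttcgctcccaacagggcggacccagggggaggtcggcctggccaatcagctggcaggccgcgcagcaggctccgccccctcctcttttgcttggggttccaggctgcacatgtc
Selenbp1 held 3 matches and Ankrd37 held 3, and the stretch of Mgarp held none of these letters, which says nothing about HIF binding elsewhere.

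The genes raised in SH only are represented by Cd80 at chr16:38458683-38458932, Fam92b at chr8:120177470-120177719 and Pinlyp at chr7:24546119-24546255. The same-base shares are 38.6%, 38.6% and 21.6%.
Cd80: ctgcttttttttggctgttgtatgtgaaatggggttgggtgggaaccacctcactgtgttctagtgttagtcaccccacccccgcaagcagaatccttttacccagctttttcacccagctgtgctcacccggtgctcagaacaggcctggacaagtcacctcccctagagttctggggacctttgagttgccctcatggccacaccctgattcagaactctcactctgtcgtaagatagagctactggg
Fam92b: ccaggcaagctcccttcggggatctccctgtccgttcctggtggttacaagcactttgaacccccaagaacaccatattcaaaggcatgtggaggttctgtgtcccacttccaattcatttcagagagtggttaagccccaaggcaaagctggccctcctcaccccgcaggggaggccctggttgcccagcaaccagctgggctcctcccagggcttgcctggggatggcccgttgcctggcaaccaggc
Pinlyp: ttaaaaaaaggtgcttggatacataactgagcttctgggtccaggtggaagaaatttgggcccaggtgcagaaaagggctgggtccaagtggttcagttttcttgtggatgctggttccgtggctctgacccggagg
None of these 3 stretches holds a match. The collagen genes lost in the sorted population are represented by Serpinh1 at chr7:99353240-99353489 and Col1a2 at chr6:4505370-4505492, with same-base shares of 38.6% and 19.6%.
Serpinh1: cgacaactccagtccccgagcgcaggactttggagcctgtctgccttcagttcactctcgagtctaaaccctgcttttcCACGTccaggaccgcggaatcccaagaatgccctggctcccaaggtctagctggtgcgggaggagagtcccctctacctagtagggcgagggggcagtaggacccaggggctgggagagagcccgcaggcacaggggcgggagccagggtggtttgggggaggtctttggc
Col1a2: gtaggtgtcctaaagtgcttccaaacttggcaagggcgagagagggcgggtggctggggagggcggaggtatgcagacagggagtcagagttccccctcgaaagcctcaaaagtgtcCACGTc
Each holds 1 match although neither was raised in SH. The stretch of Col3a1, the other gene of this class examined (chr1:45311288-45311537, not printed), holds none, with a same-base share of 38.6%. Only 65.5% of tested genes have an entry in the sequence table, so no share of promoters with a match was computed for whole classes.

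The 10 deepest losses named by the rule were all called lower in SN as well, and several of them make or process the collagen-rich matrix. Serpinh1, the chaperone of procollagen in the endoplasmic reticulum (gene at chr7:99345376-99353239), was at 461, 726 and 640 TPM in UN, 362, 420 and 374 TPM in UH, 1.69, 1.56 and 3.14 TPM in SN and 0.467, 0.51 and 0.944 TPM in SH. It fell by 8.53 on the log2 scale (SE 0.21, adjusted p = 5.16e-10), the largest loss among the genes named by the rule. The SN values lay far below both unsorted groups, and hypoxia was lower than normoxia within each population, with no overlap. Rcn3, a calcium-binding protein of the secretory pathway, was at 315 to 636 TPM in UN and 1.76 to 2.65 TPM in SH. Fkbp10, a collagen prolyl isomerase, was at 146 to 312 TPM in UN and 0.725 to 1.29 TPM in SH. Cyba, a subunit of the NADPH oxidase, was at 187 to 238 TPM in UN and 0.49 to 1.2 TPM in SH.

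Col3a1, a fibrillar collagen chain, showed how far UN replicate 1 stood apart. It was at 1960, 222 and 173 TPM in UN, 1270, 2140 and 1820 TPM in UH, 1.04, 0.856 and 1.65 TPM in SN and 2.04, 0.852 and 1.03 TPM in SH. The log2 fold change was -7.56 ± 0.69 (adjusted p = 3.82e-06) and was -6.45 without UN replicate 1. Col1a2 was at 664, 145 and 126 TPM in UN and 0.432, 0.562 and 0.542 TPM in SH, a change of -7.26 that became -6.50 without that library. Acta2, smooth muscle actin, was at 845, 172 and 162 TPM in UN, 24.2 to 34.7 TPM in SN and 1.59, 1.25 and 9.43 TPM in SH. It fell by 6.19 (SE 0.63), or by 5.41 without UN replicate 1. With or without it, the SH values lay far below the lowest UN value.

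Hypoxia raised several of these genes in unsorted cells and did not bring them back to the UN level in sorted cells. Timp3, an inhibitor of metalloproteinases, was at 196 to 236 TPM in UN and 1410 to 2210 TPM in UH, but at 0.798 to 1.37 TPM in SN and 1.27 to 2.34 TPM in SH. Lox, the lysyl oxidase that crosslinks collagen, was at 128 to 145 TPM in UN, 516 to 918 TPM in UH and 0.529 to 0.807 TPM in SH. Its mean was 0.137 TPM in SN and 0.694 TPM in SH, levels at which log2(TPM + 1) understates the rise. Timp3 and Lox were called higher in UH (3.12 and 2.41) and lower in SH (-6.23 and -6.31). Col1a1 was at 5.65 to 7.62 TPM in SN and 15.5 to 26.3 TPM in SH, against 428 to 1190 TPM in UN. In all, 67 genes called lower in SH were called higher in UH, and 8 were called higher in SN.

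Of 22 collagen chain genes tested, 2 were called higher (8.97% of all genes) and 9 lower (11.3%) in SH (median -0.41, all genes -0.04). Of 32 matrix glycoproteins and proteoglycans, 3 were called higher and 20 lower (median -1.64). Basement membrane genes went in both directions. Lama4 fell by 5.42, Nid1 by 4.91 and Nid2 by 3.80, and Col4a1 (0.63), Col4a2 (0.85) and Hspg2 (0.86) were not called. Nid2, Col4a1, Col4a2 and Hspg2 were chosen after their values were seen. Col18a1, another basement membrane collagen, was at 59.3 to 92.3 TPM in UN and 379 to 413 TPM in SH (2.48 ± 0.17), and was already at 319 to 357 TPM in SN. The laminin chain genes Lama5 (1.78) and Lama3 (1.70) were among the 3 members of the matrix list called higher. Of 22 collagen processing genes, 6 were called higher and 8 lower. P4hb and P4ha1, subunits of prolyl 4-hydroxylase, rose (2.26 and 3.18), whereas P4ha3, another catalytic subunit, fell by 3.77. Loxl2, a lysyl oxidase family member chosen after its values were seen, rose in UH (4.14) and was lower in SH (-3.13). Among 23 mesenchymal genes 3 were called higher and 11 lower, and among 22 metalloproteinases and their inhibitors 3 higher and 6 lower (8.97% and 11.3% of all genes).

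The fibroblast and stellate cell markers share members with the lists above, among them Col1a1, Col1a2, Col3a1, Acta2 and Pdgfra. Their fall is therefore not independent of these losses. Of 11 markers tested, 8 were called lower and 1, Des, higher (11.3% and 8.97% of all genes). Their summed level was 1200 to 5270 TPM in UN and 59.2 to 79.5 TPM in SH. In SN it was 203 to 213 TPM. In bulk RNA, fewer cells of a type and less RNA per cell cannot be told apart, and the part played by such cells in the matrix losses was not tested.

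The changes seen only in SH were defined by 5 comparisons at once. SH against SN gave 1412 genes higher (7.47%) and 945 lower (5.0%), and SH against UH 1447 higher (7.65%) and 1012 lower (5.35%). A gene had to be called in SH against UN, against SN and against UH in the same direction, and be called that way neither in SN nor in UH against UN. This held for 355 genes higher (1.88% of those tested) and 25 lower (0.132%). For 289 of the higher genes (1.53%) and 14 of the lower genes (0.074%) the interaction (SH - SN - UH + UN) was called as well, so that the endpoint exceeded the sum of the steps on the log2 scale. In every alternative processing tried, 97 higher and 6 lower genes met these conditions with the interaction. The interaction itself leaned upward in TPM (1527 genes positive, 8.08%, and 412 negative, 2.18%, with a median gene at 0.25). With median-of-ratios scaling it was called positive in 901 genes and negative in 782 (median 0.02), and with quantile normalization in 772 and 745.

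Many genes raised only in SH were scarce in the other groups. Their median level was 5.26 TPM in SH, against 0.64 TPM in UN, 0.81 in UH and 0.63 in SN. In 172 of the 355 the mean was under 1 TPM in all 3 other groups, and 102 reached 10 TPM in SH. Protein-coding genes made up 72.4% of them and 77.0% of all genes tested, and predicted or clone-named genes 27.3% and 25.3%.

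Svop, which encodes a transporter-like protein of synaptic vesicles, had the widest margin. It was at 0.164, 0.122 and 0.0959 TPM in UN, 0.206, 0.459 and 0.174 TPM in UH, 0.176, 0.129 and 0.173 TPM in SN and 17.3, 14.9 and 13.1 TPM in SH. The log2 fold change was 3.83 ± 0.14 (adjusted p = 3.46e-09) and the interaction 3.61 (adjusted p = 1.61e-06). The 9 libraries of the other groups all stayed under 0.5 TPM.

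Cd80, the costimulatory ligand of CD28 and CTLA-4 on antigen-presenting cells, was at 0.63, 0.369 and 0.579 TPM in UN, 0.53 to 0.97 TPM in UH, 0.502 to 0.668 TPM in SN and 12.3, 12.3 and 9.82 TPM in SH (3.03 ± 0.15, interaction 2.75). Col9a3, a chain of cartilage collagen IX, was at 0.589 to 1.12 TPM in UN and 16.8, 19.2 and 14.6 TPM in SH (3.20 ± 0.23, interaction 2.65). Slc4a11, a membrane transporter of the bicarbonate transporter family, was at 0.623 to 1.29 TPM in UN and 14.5, 12.3 and 8.38 TPM in SH (interaction 3.14). In SN it lay below UN, at 0.194 to 0.376 TPM, so its response to hypoxia in sorted cells began from a lower level.

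Fam92b was listed at 0 in all UN libraries, at 0.0908 to 0.207 TPM in UH, at 0.107 to 0.464 TPM in SN and at 7.95, 11.8 and 5.65 TPM in SH. Zfp750, a regulator of epidermal differentiation, was at up to 0.305 TPM in UN, UH and SN and 9.37, 8.9 and 5.58 TPM in SH. Pinlyp, a phospholipase inhibitor, was at 0 to 0.475 TPM outside SH and 9.5, 8.77 and 5.36 TPM within it. Dpysl5, a collapsin response mediator of neurons, was at 0.11 to 0.453 TPM outside and 9.9, 9.16 and 5.04 TPM within. Ptprv, a receptor-type tyrosine phosphatase, reached 15.2, 16.1 and 5.82 TPM in SH and at most 1.26 TPM elsewhere. Casq2, the calcium store protein of heart muscle, was at 6.66, 9.27 and 6.89 TPM in SH and at most 0.783 TPM elsewhere. Doxl2 and Pnliprp2 behaved alike, with 7.19 to 8.26 and 3.26 to 9.03 TPM in SH. The 12 named by the rule were picked for the widest margin of SH over the other groups. That their 3 SH values lay above all 9 others follows largely from this choice. SH replicate 3 was the lowest SH library in 10 of those 12.

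**Figure D3:**
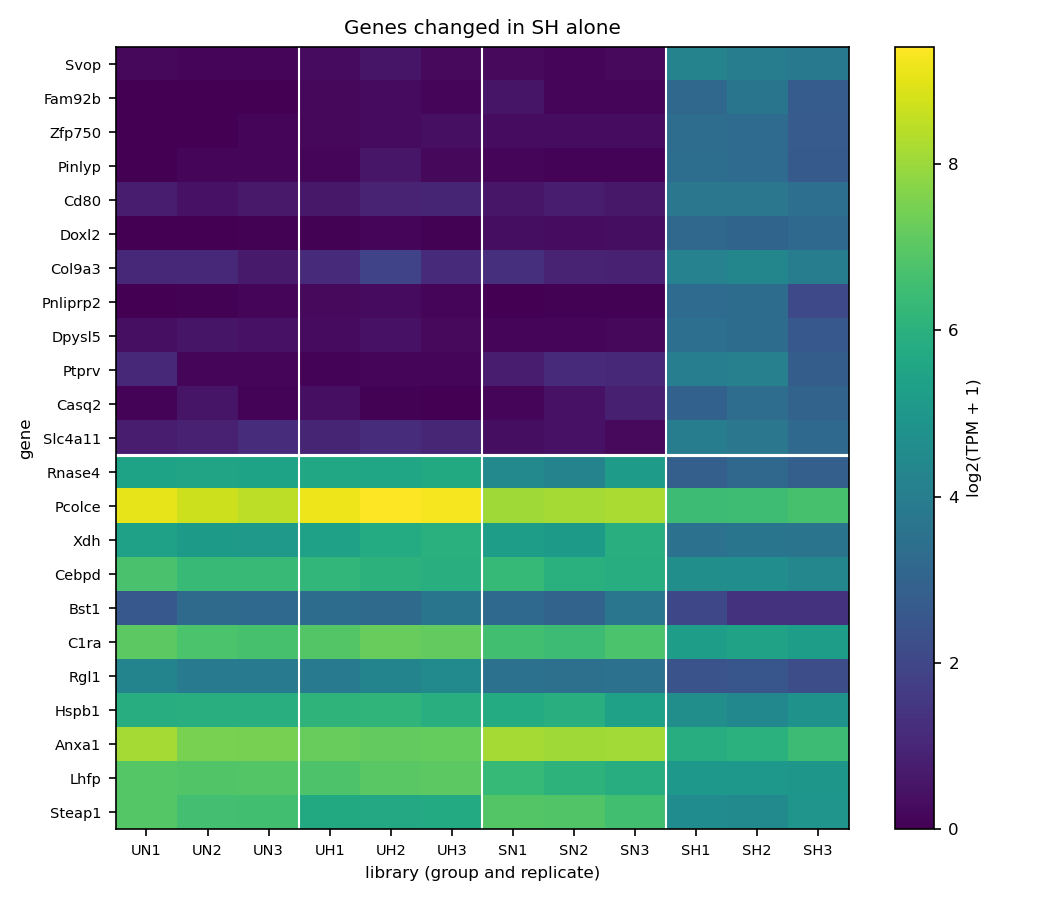
Level of 23 genes named from the class called only in SH, as log2(TPM + 1) in colour, with 1 row per gene (12 higher above the white line, 11 lower below it) and 1 column per library grouped as UN, UH, SN and SH. Svop goes from at most 0.459 TPM in the other 9 libraries to 13.1 to 17.3 TPM in SH, and Pcolce from at least 269 TPM to 87.3 to 100 TPM.

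The 25 genes lowered only in SH were well expressed at the start, with medians of 53.6 TPM in UN and 12.2 TPM in SH. Pcolce, the enhancer of procollagen C-proteinase, was at 534, 409 and 352 TPM in UN, 578, 680 and 615 TPM in UH, 269, 281 and 297 TPM in SN and 87.3, 89.7 and 100 TPM in SH. It fell by 2.19 (SE 0.14, adjusted p = 1.96e-07), with an interaction of -2.15. Xdh, the xanthine dehydrogenase of purine breakdown, was at 33.4 to 40.5 TPM in UN, 40.7 to 62.3 TPM in UH, 33.9 to 59.0 TPM in SN and 10.6, 11.6 and 11.3 TPM in SH (interaction -2.33, adjusted p = 0.000296). C1ra, a protease of the complement pathway, was at 102 to 131 TPM in UN and 36.4, 42.1 and 36.7 TPM in SH. Anxa1, the annexin A1 gene, was at 176 to 285 TPM in UN, 267 to 280 TPM in SN and 57.0, 63.8 and 86.8 TPM in SH. Hspb1, a small heat shock protein, and Steap1, a metalloreductase, fell by 1.28 and 2.05. Each of these genes was called lower in SH than in SN, and none passed the fold limit in UH.

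Some genes climbed at both steps and reached in SH a level above either. Robo3, an axon guidance receptor (gene at chr9:37415669-37433246, minus strand), had the largest gain of the genes named by the rule. It was at 0.543, 0.577 and 0.575 TPM in UN, 2.86, 3.11 and 2.74 TPM in UH, 2.25, 3.68 and 3.25 TPM in SN and 185, 175 and 136 TPM in SH. The log2 fold changes were 1.32 in UH, 1.36 in SN and 6.72 ± 0.16 in SH (adjusted p = 5.16e-10), with an interaction of 4.04 (adjusted p = 2.25e-06). Ankk1, a kinase with ankyrin repeats, was at 0.191 to 0.333 TPM in UN, 4.33 to 5.76 TPM in UH, 1.38 to 2.21 TPM in SN and 27.6 to 30.6 TPM in SH (interaction 1.22). Il11, a cytokine of the IL-6 family, was at 5.38, 2.76 and 2.31 TPM in UN, 37.2 to 38.9 TPM in SN and 100, 92.4 and 110 TPM in SH, with an interaction of 0.06 (adjusted p = 0.894). Sprr2g, a cornified envelope gene, rose less than the sum of its steps (5.08 in SH, 4.42 in SN, 3.23 in UH, interaction -2.58, adjusted p = 0.00197). Sprr2 genes are near-identical copies, so its reads may be shared with its neighbours.

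Genes raised by the sorting step included Trf, transferrin, at 3.36, 0.921 and 2.24 TPM in UN, 37.9 to 61.4 TPM in SN and 44.0 to 49.0 TPM in SH (3.98 ± 0.29). Raet1e, a ligand of the NKG2D receptor, was at 1.4 to 2.64 TPM in UN and 19.4 to 29.2 TPM in SH, near its SN level of 20.8 to 29.7 TPM. Glrp1 reached 2.52 to 4.24 TPM in SN and 31.4 to 47.9 TPM in SH, and its interaction was called (3.18, adjusted p = 4.16e-05). Aire, the autoimmune regulator of the thymus, belonged to the hypoxia class with 5.15 to 7.83 TPM in UH, but SH libraries held 40.2, 29.6 and 24.9 TPM, and its interaction was 2.07 (adjusted p = 0.000484). A class name therefore says which step was called, and not that the endpoint equals that step.

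Losses called at both steps were led by Slpi, a secreted inhibitor of leukocyte proteases. It was at 92.4, 226 and 223 TPM in UN, 18.4 to 19.5 TPM in UH, 4.93 to 12.5 TPM in SN and 0.358, 0.625 and 0.216 TPM in SH (-6.92 ± 0.36, adjusted p = 4.97e-08). Its interaction was 0.56 (adjusted p = 0.448). Pdgfra, the platelet-derived growth factor receptor of mesenchymal cells, was at 80.4 to 176 TPM in UN, 19.1 to 37.5 TPM in UH, 1.21 to 2.17 TPM in SN and 0.259 to 0.345 TPM in SH. Fam111a, Tm4sf1 and Armcx2 fell by 5.61, 6.22 and 5.60. For 284 of the 440 genes of this class the interaction was called in the opposite direction, that is, the endpoint had fallen by less than the sum of the steps.

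Cell-cycle genes separated SH from UH. All 35 mitosis genes listed were tested, and 33 were called lower in UH but 6 in SH (11.8% and 11.3% of all genes). Their medians were -1.92 in UH and -0.17 in SH. The interaction was called positive in 29 of them (8.08% of all genes), with a median of 1.32 against 0.25 for all genes. Relative to the median gene the gap held under other scalings, with 19 called and a median of 1.05 under median-of-ratios scaling, and 26 called and 1.15 under quantile normalization. Aurka and Cdc20, chosen after their values were seen, show the pattern. Aurka, a kinase of the spindle poles, was at 67.1 to 75.8 TPM in UN, 17.5 to 21.1 TPM in UH, 54.6 to 65.6 TPM in SN and 79.3 to 97.5 TPM in SH (interaction 2.37, adjusted p = 7.33e-06). Cdc20, which activates the anaphase-promoting complex, was at 45.9 to 61.7 TPM in UN, 7.52 to 9.7 TPM in UH and 53.3 to 56.2 TPM in SH (interaction 2.86). SH values of both lay within or above the range of UN.

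The 6 of 35 mitosis genes called lower in SH (11.3% of all genes) included Ccnb2 (-2.02), Mad2l1 (-1.81), Nuf2 (-1.68) and the cyclin gene Ccna2. Ccna2 was at 143 to 150 TPM in UN, 23.6 to 31.1 TPM in UH and 54.0 to 60.3 TPM in SH. Genes of DNA replication stayed low in SH. Of 45 tested, 29 were called lower in SH and 38 in UH (11.3% and 11.8% of all genes, medians -1.28 and -1.83). A positive interaction was called in 6 (8.08% of all genes). Rrm2, a subunit of ribonucleotide reductase, was at 85.2, 106 and 108 TPM in UN, 9.02 to 10.3 TPM in UH, 52.8 to 73.5 TPM in SN and 13.8, 17.5 and 20.8 TPM in SH (-2.47 ± 0.17). Tyms, thymidylate synthase, fell by 2.58 and Tk1, thymidine kinase, by 2.15. RNA levels do not say how many cells were dividing.

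**Figure D4:**
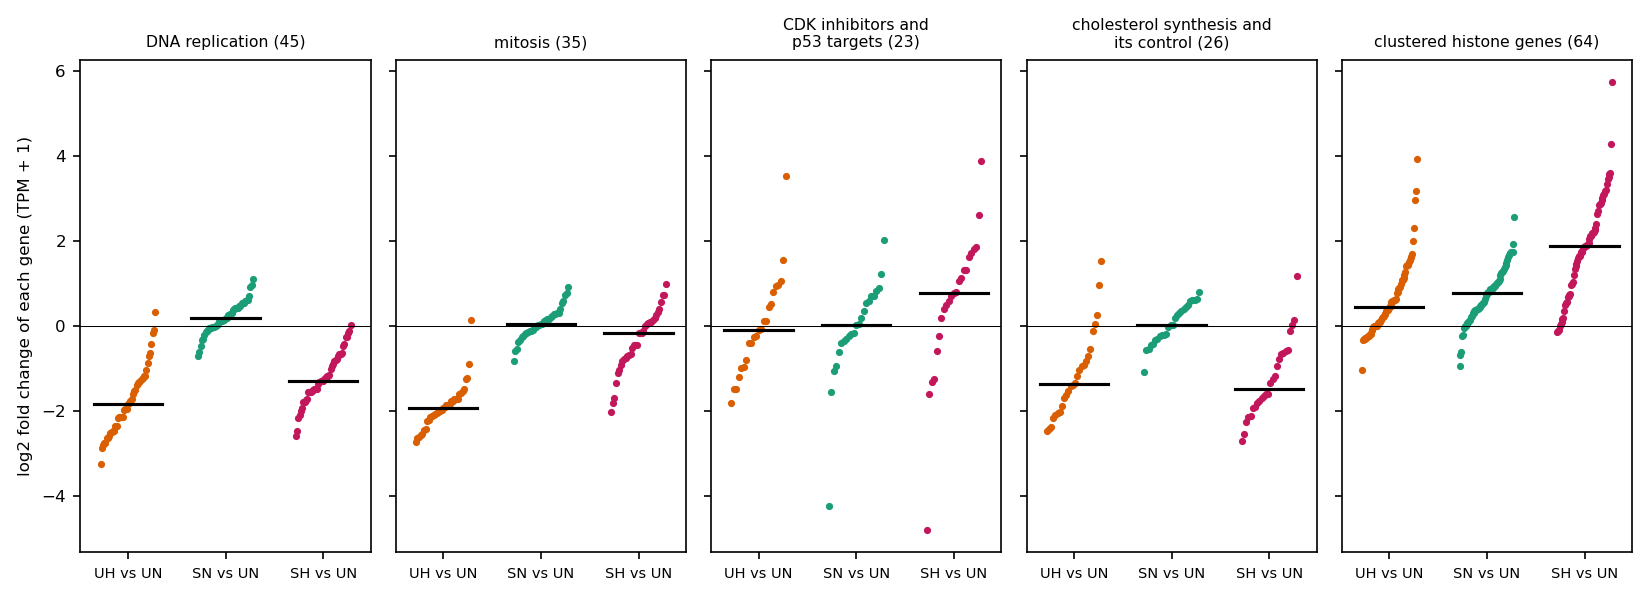
Log2 fold change against UN of each tested member of 5 gene groups in UH, SN and SH, with 1 point per gene in order of its change and a line at the median. Mitosis genes have medians of -1.92 in UH and -0.17 in SH, replication genes -1.83 and -1.28, and the clustered histone genes, a group chosen after their values were seen, 0.45 and 1.87.

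Of 23 inhibitors of cyclin-dependent kinases and targets of p53, 10 were called higher and 4 lower in SH (8.97% and 11.3% of all genes). The median was 0.77. Cdkn1a, the p21 gene, was at 86.5, 32.6 and 36.6 TPM in UN, 530 to 574 TPM in UH, 181 to 211 TPM in SN and 776, 790 and 572 TPM in SH (3.88 ± 0.28, adjusted p = 6.75e-07). Mdm2, the ubiquitin ligase of p53, was at 81.4, 48.5 and 59.8 TPM in UN and 367, 390 and 383 TPM in SH (2.60 ± 0.16). Bbc3, which encodes the killer protein PUMA, was at 19.9 to 25.5 TPM in UN, 21.5 to 28.9 TPM in UH, 27.1 to 45.2 TPM in SN and 77.3 to 87.6 TPM in SH. It rose in SH by 1.81 ± 0.17, with an interaction of 1.15 (adjusted p = 0.00764). Sesn2 rose by 1.85. The genes called lower were Cdkn2a (-4.79), Cdkn1c (-1.58), Cdkn2c (-1.32) and Fas (-1.25), and Cdkn2a was called lower in both single steps. In 6 of the 23 genes the interaction was called positive and in 1, Cdkn1a, negative (8.08% and 2.18% of all genes).

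Of 33 interferon and antigen presentation genes, 15 were called lower in SH (11.3% of all genes), 16 in SN (7.57%) and 12 in UH (11.8%), and 4 were called higher in SH. Without UN replicate 1, 13 were called lower in SH, 15 in SN and 15 in UH. Ifit1, an interferon-induced RNA-binding protein, was at 21.8, 4.86 and 4.6 TPM in UN and 0.0986, 0.239 and 0.147 TPM in SH (-2.97 ± 0.42, and -2.30 without UN replicate 1). Ifit3 fell by 2.82, Gbp3 by 2.62 and the chemokine gene Cxcl10 by 2.94. The interaction was called positive in 12 members (8.08% of all genes), in 7 with median-of-ratios scaling and in 9 with quantile normalization. The 4 members called higher were Tap1, Nlrc5, Mx2 and Isg20. Tap1, a subunit of the peptide transporter, was at 11.4, 16.6 and 16.8 TPM in UN, 6.12 to 7.4 TPM in UH, 5.04 to 7.41 TPM in SN and 36.6, 39.8 and 25.8 TPM in SH (1.14 ± 0.20). Without UN replicate 1 its change was 0.97, under the fold limit. Nlrc5, the transactivator of MHC class I genes, was at 0.674 to 2.26 TPM in UN and 4.96 to 9.19 TPM in SH, and Mx2, an antiviral GTPase, at 0.97 to 2.8 TPM in UN and 4.83 to 6.73 TPM in SH. Nlrc5 and Mx2 belonged to the class called only in SH. Isg20, an exonuclease, rose by 2.91, with an interaction of -0.22.

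Of 21 chemokine genes, 14 were called lower in SH and 14 in UH (11.3% and 11.8% of all genes). Ccl5 (-2.08), Ccl3 (-1.95) and Cxcl16 (-2.74) were among those called lower in SH. Ccl17, a ligand of CCR4, was the member called higher, with 2.39, 2.41 and 4.36 TPM in UN, 0 to 1.05 TPM in UH and 7.67, 10.3 and 6.61 TPM in SH. The acute phase gene Saa3 was at 633, 1620 and 1540 TPM in UN, 132 to 158 TPM in UH, 1200 to 1430 TPM in SN and 37.5, 41.6 and 24.9 TPM in SH. It fell by 5.06 (SE 0.30, adjusted p = 1.54e-07), further than in UH (interaction -2.21). Among leukocyte markers Cd68 was called higher, at 2.63 to 3.85 TPM in UN and 51.2 to 55.9 TPM in SH, while Csf1r (0.89, and 1.25 without UN replicate 1), Cd14 (-0.36) and Lyz2 (-0.54) were not called.

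Cholesterol synthesis genes were mostly lower in hypoxia. Of 26 tested, 16 were called lower and 1 higher in SH (11.3% and 8.97% of all genes, median -1.47). In UH these counts were also 16 and 1 (11.8% and 5.46% of all genes). Fdps, farnesyl diphosphate synthase, was at 144, 99.6 and 97.9 TPM in UN and 14.2, 13.6 and 22.6 TPM in SH (-2.70 ± 0.24). Acat2 was at 49.8 to 57.2 TPM in UN and 8.13 to 8.86 TPM in SH. Insig2, which holds the sterol sensor in the endoplasmic reticulum, was the member called higher (1.17). Of 28 genes of fatty acid synthesis and lipid droplets, 3 were called higher and 9 lower (8.97% and 11.3% of all genes). The lipid droplet gene Hilpda (3.75) and the acyltransferase gene Dgat2 (2.26) rose, and the desaturase gene Scd1 fell by 3.86, from 36.5 to 42.8 TPM in UN to 1.47 to 2.21 TPM in SH.

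Of 32 NRF2 target genes, 2 were called higher and 13 lower in SH (8.97% and 11.3% of all genes, median -0.61) in cells that carry the L30P mutant of NRF2. Gclm, a subunit of the enzyme that starts glutathione synthesis, was at 382, 754 and 782 TPM in UN, 84.0 to 105 TPM in UH, 216 to 234 TPM in SN and 40.3, 46.4 and 48.9 TPM in SH (-3.72 ± 0.22). Txn1, thioredoxin, was at 422 to 499 TPM in UN and 58.6 to 87.3 TPM in SH. The genes called higher were Abcc1 (1.39) and Akr1b10 (1.21). Nfe2l2, which encodes NRF2, was at 94.0 to 124 TPM in UN and 83.5 to 102 TPM in SH, and was not called (-0.24 ± 0.13, adjusted p = 0.145). Of 20 β-catenin target genes 5 were called lower (11.3% of all genes), led by Rnf43 (-2.87), and Ctnnb1 itself was not called (-0.30 ± 0.12, adjusted p = 0.0576). Reads from the transgenes and from the mouse genes cannot be told apart in these values.

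Mitochondrially encoded messenger RNAs split, with 1 of 13 called higher and 3 lower in SH (8.97% and 11.3% of all genes). mt-Atp6 was at 7930 to 10300 TPM in UN and 2090 to 3590 TPM in SH (-1.86 ± 0.24), and mt-Atp8, whose reading frame overlaps it, fell by 2.63. mt-Co2 was at 1030 to 1370 TPM in UN and 2650 to 4530 TPM in SH (1.48 ± 0.39), but SN libraries held 1370 to 5100 TPM. Of 46 nuclear respiratory chain subunits 0 were called higher and 3 lower, led by Ndufa4 at 417 to 452 TPM in UN and 82.2 to 108 TPM in SH (-2.17 ± 0.13). That is a smaller share than the 11.3% of all genes. At an adjusted p under 0.05 without the fold limit 37 were lower and 2 higher (limma), with a median of -0.51. The share of all genes at this looser limit is not given, so these counts cannot be set against it.

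Endothelial genes moved in both directions. Of 39 listed, 23 passed the level limit, and of these 5 were called higher and 3 lower in SH (8.97% and 11.3% of all genes). The median was 0.14. Tek was at 0.133, 0.124 and 0.141 TPM in UN, 0.0853 to 0.226 TPM in UH, 2.07 to 2.7 TPM in SN and 3.29, 3.0 and 2.83 TPM in SH (1.83 ± 0.12, adjusted p = 3.18e-07). The cells were sorted on a reporter of its promoter, so its rise is not independent of the sort. Esam, an adhesion molecule of endothelial junctions, was at 1.1, 0.375 and 0.926 TPM in UN, 0.658 to 1.09 TPM in UH, 1.52 to 2.43 TPM in SN and 7.7, 8.66 and 5.35 TPM in SH (2.19 ± 0.22), and was the member called only in SH with an interaction (1.36, adjusted p = 0.00927). Its SN values already lay above all UN values, and it did not meet these conditions in every alternative processing. Plvap, a protein of endothelial fenestrae, was at 0.0383 to 0.244 TPM in UN and 2.87 to 5.07 TPM in SH and was called in both steps. Aplnr, the apelin receptor gene, rose by 1.26.

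S1pr1, a receptor of sphingosine 1-phosphate, was at 19, 52.5 and 48.0 TPM in UN and 9.26, 10.8 and 10.9 TPM in SH (-1.73), and Egfl7 fell by 1.69. Eng, endoglin, was at 41.4, 8.88 and 8.67 TPM in UN and 5.39 to 7.24 TPM in SH, and its fall of 1.13 became -0.43 without UN replicate 1, which is under the fold limit. Summed over the 8 defining endothelial markers tested of 13 listed, the level was 14.0 to 15.3 TPM in UN, 28.5 to 37.3 TPM in UH, 9.04 to 10.1 TPM in SN and 18.1 to 25.4 TPM in SH. In unsorted cells the rise of this sum rested on Flt1, a VEGF receptor chosen after its values were seen. Flt1 was at 1.76 to 3.6 TPM in UN, 17.8 to 28 TPM in UH, 1.15 to 1.5 TPM in SN and 3.31 to 4.22 TPM in SH. Egfl7 was at 8.51 to 11.4 TPM in UN and 6.85 to 7.71 TPM in UH. Of the 8 markers, 3 were called higher in SH and 1 lower (8.97% and 11.3% of all genes).

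Of 26 angiogenic ligands 8 were called higher and 8 lower (8.97% and 11.3% of all genes). Vegfc was at 16.5, 8.54 and 9.05 TPM in UN and 40.4 to 46.0 TPM in SH (1.90 ± 0.19), and Pdgfb, already raised in SN, rose by 1.68. Angpt1, an activating ligand of the Tie2 receptor, was at 6.92, 19.8 and 20.5 TPM in UN and 0.136 to 0.306 TPM in SH (-3.63 ± 0.34). Pgf, placental growth factor, chosen after its values were seen, was at 0.4 to 0.547 TPM in UN, 152 to 178 TPM in UH, 0.465 to 0.92 TPM in SN and 4.39, 4.09 and 1.61 TPM in SH. Its hypoxia response was far smaller in sorted cells (interaction -5.5, adjusted p = 3.61e-06).

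Most markers of hepatocytes and of the tumour were lower at the endpoint. Of 10 tumour and hepatocyte markers tested, 7 were called lower and 1 higher (11.3% and 8.97% of all genes). Their summed level was 221 to 435 TPM in UN and 99.7 to 182 TPM in SH. Alb, albumin, was at 2.07 to 3.3 TPM in UN and 0.262 to 0.39 TPM in SH, so that the defining gene of hepatocytes was scarce in the labelled hepatoblastoma cells of both groups. Hnf4a, the master regulator of hepatocytes, was at 1.7, 4.86 and 4.98 TPM in UN and 0.0625 to 0.142 TPM in SH (-2.04 ± 0.25), and 7 of 18 hepatocyte transcription factors were called lower (11.3% of all genes). The fetal growth genes Igf2 and H19 fell by 5.10 and 3.39. Of 23 hepatoblast and progenitor genes tested, 4 were called higher and 7 lower (8.97% and 11.3% of all genes). Those called higher were Prom1 (2.83), Krt7 (2.21), Ncam1 (1.09) and Afp (1.06). Dlk1 was at 13.5, 83.8 and 78.7 TPM in UN and 0.559 to 1.61 TPM in SH (-4.46, and -5.29 without UN replicate 1). Afp, alpha-fetoprotein, was the only one of the 10 tumour and hepatocyte markers called higher, at 1.43 to 2.34 TPM in UN and 3.22, 4.71 and 7.3 TPM in SH. Its change of 1.06 became 0.96 without UN replicate 1.

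Of 32 plasma protein genes 4 were called higher and 6 lower (8.97% and 11.3% of all genes). Hgfac, the activator of hepatocyte growth factor, rose by 4.35, from 0.6 to 1.02 TPM in UN to 29.6 to 37.9 TPM in SH. Hp, haptoglobin, was at 33.8, 14.0 and 14.1 TPM in UN, 36.6 to 67.1 TPM in SN and 0.155 to 0.572 TPM in SH, a fall of 3.85 from a level that the sorting step had raised. Among 5 biliary markers Krt7 was called higher (2.21) and Krt19 (-3.31) and Spp1 (-1.61) lower. Among 19 epithelial junction genes and keratins 4 were called higher and 4 lower (8.97% and 11.3% of all genes). Cdh1, E-cadherin, was at 5.81 to 11.1 TPM in UN and 0.258 to 0.35 TPM in SH.

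Not every change of a single step was still called at the endpoint. Of 606 genes higher in SN, 287 (47.4%) were not called higher in SH, and of 1032 higher in UH, 461 (44.7%) were not. Of 1431 lower in SN and 2222 lower in UH, 381 (26.6%) and 1097 (49.4%) were not called lower in SH. Only 3 genes were called higher in both steps but not in SH, and 39 were called lower in both but not in SH. The 3 were Dusp4, Sema3e and Ghr. Without UN replicate 1, Sema3e (1.03) and Ghr (1.05) passed the fold limit in SH as well. Dusp4, a MAP kinase phosphatase, was at 19.9, 8.87 and 9.31 TPM in UN, 22.9 to 33.2 TPM in UH, 35.8 to 81.1 TPM in SN and 12.8 to 21.9 TPM in SH. Cdkn3, a phosphatase of cyclin-dependent kinases, was at 16.7 to 22.7 TPM in UN, 4.55 to 8.18 TPM in UH, 5.78 to 7.53 TPM in SN and 13.6 to 18.9 TPM in SH.

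Few genes called higher in SH were called in the opposite direction in a single step. Of the 1697, 23 were called lower in SN and 9 lower in UH. P2rx7, an ATP-gated channel, was at 1.04 to 4.34 TPM in UN, 0.332 to 0.644 TPM in SN and 18.6, 15.2 and 8.02 TPM in SH. Kank3 was at 4.63 to 7.48 TPM in UN, 0.585 to 2.55 TPM in SN and 17.5 to 33.5 TPM in SH. Gtse1 and Psrc1, which act on the mitotic spindle, were called lower in UH and higher in SH, but without UN replicate 1 the change of Psrc1 in UH was -0.74, under the fold limit. Psrc1 was at 29.6 to 53.4 TPM in UN, 16 to 21.6 TPM in UH and 109 to 146 TPM in SH (1.80 ± 0.20).

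Of 34 genes of the unfolded protein and integrated stress response, 7 were called higher and 3 lower in SH (8.97% and 11.3% of all genes). Ddit3, the CHOP gene, was at 74.0 to 101 TPM in UN and 340 to 496 TPM in SH (2.35 ± 0.26), and Trib3, a pseudokinase gene that CHOP induces, rose by 2.47. Atf3 reached 127 to 148 TPM in SH, against 7.94, 34.3 and 36.6 TPM in UN (2.58, and 1.91 without UN replicate 1). Of 22 amino acid transporters 2 were called higher and 6 lower (8.97% and 11.3% of all genes). Slc7a5, the large neutral amino acid transporter, was at 39.5 to 56.0 TPM in UN and 122 to 135 TPM in SH, with an interaction of 1.5 (adjusted p = 0.000234). Slc1a3, a glutamate transporter, was at 17.7 to 28 TPM in UN and 0.0775 to 0.32 TPM in SH. The 49 cytosolic ribosomal protein genes gave a median of 0.08. No member passed the fold limit by limma, and 13 were higher and 12 lower at an unadjusted p under 0.05. The share of all genes at that unadjusted limit is not given.

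**Figure D5:**
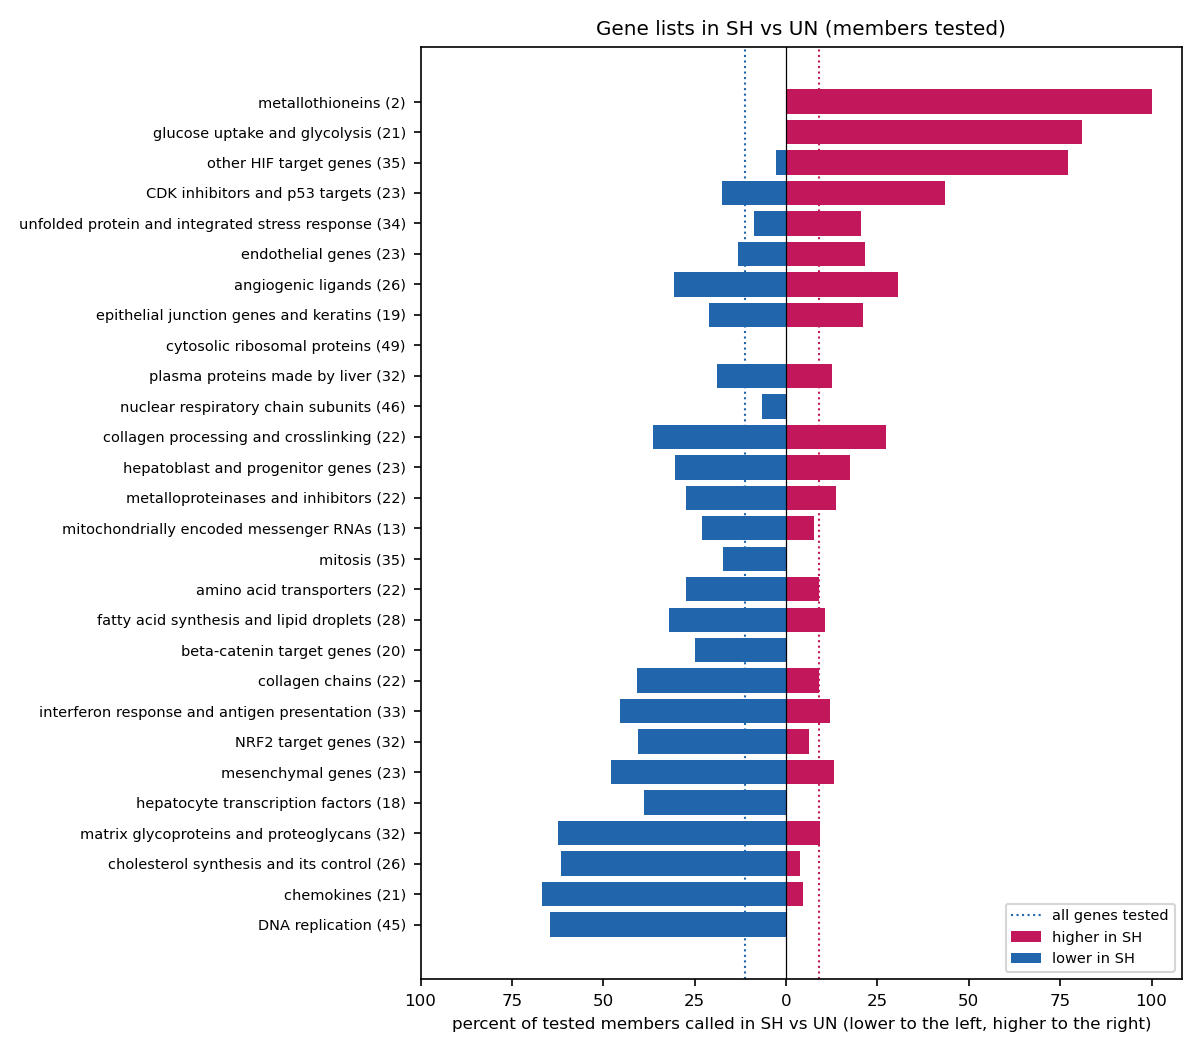
Percent of the tested members of each gene list called lower (bars to the left) and higher (bars to the right) in SH against UN, with the number tested in brackets and dotted lines at the shares over all 18909 genes (11.3% lower and 8.97% higher). Of 21 glycolysis genes 17 were called higher, and of 45 replication genes 29 were called lower.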

How the data were processed

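RNA from BN1-Tie2-EGFP cells was sequenced in 12 stranded mRNA libraries (paired-end). The authors processed the reads with nf-core/rnaseq, and the deposited table holds the TPM of its Salmon step for each gene and library. The build is mm10 per the labels. TPM are corrected for transcript length and sum to the same total in every library, so a large rise of some genes lowers all others, and the depth of each library is unknown. Counting intervals and floors are therefore not given.

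Gene identifiers were matched to GENCODE M21 (98.8% found). Of the 45706 genes, 17689 were at 0 in all libraries. Values were taken as log2(TPM + 1), which understates the change of low genes. The 18909 genes that averaged 0.1 TPM or more were fitted with a mean per group over all 12 libraries (limma 3.58.1 in R 4.3.3, empirical Bayes with trend). Fold changes are on the log2(TPM + 1) scale. The DESeq2 test of the study needs counts and was not run. Single values were compared by exact permutation of libraries. Tables were made with Python 3.11.15, numpy 2.4.6 and pandas 2.3.3, and figures with matplotlib 3.10.9. In data simulated from these libraries for SH against UN, 200 of 18909 genes were changed: 100 of 100 genes were recovered at a log2 change of 3 and 97 of 100 at 1.5, with 2 false calls. For the class called only in SH, 100 and 94 were recovered, and for the interaction 99 and 84. The changed genes were drawn from well-expressed genes only, and were shifted on the log2(TPM + 1) scale. Genes raised only in SH had median levels of 0.64 TPM in UN, 0.81 in UH and 0.63 in SN. Recovery at such low levels was not tested.

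The members, gene lists and naming rule were chosen with earlier results of these data known, and no list was tested as a set. The text names the largest changes in each class and in each list, the genes of short marker lists, genes called in opposite directions in a single step, and Tek, Cdkn2a, Ctnnb1, Nfe2l2, Alb, Afp, Gpc3 and Dlk1. Predicted genes are not named. Not all genes so chosen are printed. Apart from the genes at the fold limit, a gene outside the rule is marked as chosen after its values were seen. Promoter sequences are from RefSeq (GRCm38.p6). Alternatives were a pseudocount of 0.1, no filter, a filter at a mean of 1 TPM, 2 scalings between libraries, a replicate block, moderation without trend, a fit of SH and UN alone and the omission of each library.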

Additional observations from a re-analysis of the deposited data

Results flagged for a closer look

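Whether hypoxia acted alike on sorted and unsorted cells was tested gene by gene with the interaction term of limma. It was called positive in 1527 genes and negative in 412, with the split depending on the scaling as given above. In 25 genes the response was called in opposite directions in the 2 populations.

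Tap1, the peptide transporter subunit, showed a difference of 3.21 between the responses, with -1 in unsorted and 2.21 in sorted cells. Cbr2, a carbonyl reductase gene, showed a difference of 3.24 (-1.86 and 1.38). Ppp2r2b, a regulatory subunit of protein phosphatase 2A, showed 2.75 (-1.74 and 1.01). Cdkn3 showed 2.78 (-1.60 and 1.18), and Ccl17 showed 2.63 (-1.55 and 1.08).

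The opposite pattern was seen in Dusp4, with a difference of -2.79 (1.20 in unsorted and -1.59 in sorted cells), and in H19, with a difference of -2.57 (1.35 and -1.21). H19, an imprinted RNA of fetal liver, was at 36.7 to 41.6 TPM in UN, 87.6 to 109 TPM in UH, 3.3 to 12.1 TPM in SN and 0.959 to 4.69 TPM in SH. Groups of 3 libraries are too small for a test of single outlying libraries.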

How the results depend on the processing

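No named gene changed direction where it was called in the main fit or in the alternative. Changes of sign in genes called in neither were not counted, such as Sox9 (0.07, and -0.03 without UN replicate 1). Over 233 genes and 20 alternatives, 4595 values kept their side of the threshold, 45 lost the call and 14 gained it. The losses fell on 14 genes near the fold limit, among them Afp, Ccl17, Eng, Mmp15, Tap1, Vim and Zeb1. A pseudocount of 0.1 raised the genes called higher to 2950, those called only in SH to 782 higher and 42 lower, and those of them with the interaction from 303 to 522. It widened the class called in neither step to 1562 higher genes and in either step to 209. Median-of-ratios scaling gave 901 positive and 782 negative interactions, and quantile normalization 772 and 745. Higher genes called in either step numbered 159 and 171 under these scalings, and lower genes 283 and 281. Leaving out 1 library at a time gave 1583 to 1932 genes higher, 2036 to 2384 lower, 321 to 457 higher and 22 to 29 lower only in SH, 277 to 399 of these with the interaction, and 1266 to 2110 positive and 335 to 636 negative interactions. Without UN replicate 1 there were 2110 positive and 636 negative interactions, 151 higher genes and 662 lower genes in the class of either step. The cause was not tested. The replicate numbers were not used as pairs in the main fit. Residuals of same-numbered SH and UN libraries correlated at 0.0236 to 0.0423, and those of other SH and UN pairs at -0.0406 to 0.0127. Residuals around a mean of 3 libraries depend on each other, so these values cannot show whether the libraries were paired. A replicate block gave 1696 genes higher and 2147 lower, 359 and 25 only in SH and 300 with the interaction. A fit of SH and UN alone gave 1667 and 2093. Without counts, changes of genes under about 1 TPM rest on the pseudocount.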

Other observations

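Clustered histone genes, a group chosen after their values were seen, rose together at the endpoint. Of 70 listed, 64 were tested and 43 were called higher in SH (8.97% of all genes). Their medians were 1.87 in SH, 0.77 in SN and 0.45 in UH (all genes -0.04, -0.06 and -0.19). Their summed level was 220 to 232 TPM in UN, 748 to 893 TPM in UH, 547 to 682 TPM in SN and 1520 to 2080 TPM in SH. Most replication-dependent histone messages end in a stem-loop and carry no poly(A) tail, and these libraries were made from poly(A)-selected mRNA. Hist1h4h was at 0.628 to 5.79 TPM in UN, 33.9 to 64.3 TPM in UH, 15.3 to 17.3 TPM in SN and 131 to 170 TPM in SH. Slbp, the stem-loop binding protein gene (also chosen after its values were seen), fell by 1.38 in SH. Of the 64 genes 13 were called only in SH, and 43 were called higher under both scalings too. The copies of a histone type are close in sequence, so single members are uncertain.

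Further genes linked to p53, also chosen after their values were seen, moved in SH. Ppm1d, a phosphatase that p53 induces, was at 11.5, 15.5 and 15.8 TPM in UN, 8.27 to 10.3 TPM in UH, 13.4 to 14.1 TPM in SN and 41.9, 47.6 and 39.8 TPM in SH (interaction 2.15, adjusted p = 4.44e-05). Trp53cor1, a long non-coding RNA gene next to Cdkn1a, was at 0.0246 to 0.0926 TPM in UN and 3.33 to 5.93 TPM in SH. Pmaip1, the NOXA gene, was at 14.3 to 32.9 TPM in UN, 12 to 16.3 TPM in UH and 68.6 to 87.6 TPM in SH (interaction 2.37). Trp53 itself was not called in SH (0.13 ± 0.17, adjusted p = 0.541).

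Some abundant non-coding RNAs, chosen the same way, were also higher in SH. The mitochondrial ribosomal RNA mt-Rnr1 was at 318 to 449 TPM in UN and 1970 to 2650 TPM in SH, although mt-Atp6 and mt-Atp8 fell. Neat1, the scaffold of nuclear paraspeckles, was at 313 to 485 TPM in UN and 1240 to 1860 TPM in SH.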
